A study of Mus musculus with 4 samples.

Results

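Genes of the natriuretic peptide and cyclic GMP relaxation pathway were followed in single cells of the mouse ascending aorta. They were taken from a list of names, with no threshold on measured values: the natriuretic peptide receptors Npr1, Npr2 and Npr3, the soluble guanylate cyclase subunits Gucy1a1 and Gucy1b1, the kinase Prkg1, and the phosphodiesterases Pde5a and Pde3a. These are 8 of the 18109 genes that the 3 libraries have in common, and all 8 were found in each library. Each was read in 2 cell classes fixed by UMI counts (a UMI, or unique molecular identifier, stands for 1 captured RNA molecule). Levels are given in the usual CPM units, the UMIs of a gene scaled to the total UMIs of the cells of a class. Smooth muscle cells had 5 or more Myh11 UMIs and 0 Pdgfra UMIs. Fibroblasts had 1 or more Pdgfra UMIs and 2 or fewer Myh11 UMIs.

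In the vessel wall, cyclic GMP is made by receptors for circulating and locally made natriuretic peptides and by a soluble cyclase that binds nitric oxide. It activates a protein kinase, which lowers cytosolic calcium and the calcium sensitivity of myosin, and smooth muscle relaxes. Phosphodiesterases break the cyclic nucleotide down, and a clearance receptor that lacks a cyclase domain removes the peptides from the pericellular space. Angiotensin II (AngII), a pressor peptide, drives the opposing contractile and growth response.

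The series asked how smooth muscle cells of different embryonic origin in this segment respond to AngII. Aortas of male mice of the strain labelled Mef2c-mTmG were digested, and live cells were sorted by lineage tracing before droplet sequencing of transcript 3′ ends. The reporter mTmG turns from red to green membrane fluorescence where a recombinase has been active, so a sorted fraction rests on that switch. How the switch was used in the sort is not given in the sources used here. The analysis covered 3 groups, each of 1 library. SHF baseline held cells sorted as descendants of the second heart field, a pool of cardiac progenitors, from mice at baseline. SHF AngII held cells of the same origin from mice infused with AngII for 3 days. CNC AngII held cells sorted as another origin after the same 3 days, under an abbreviation that the labels do not spell out. The library labelled CNC baseline was not analysed here, so the response to AngII could be described for SHF cells alone. How many animals went into a library is not given in the sources used here.

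After filtering, the libraries held 8374, 9299 and 10194 cells for SHF baseline, SHF AngII and CNC AngII. Of these, 2259, 4649 and 6385 passed the smooth muscle gate, and 3939, 2640 and 842 passed the fibroblast gate. Median depth ran from 12441 to 13450 UMIs per smooth muscle cell and from 9534 to 15485.5 per fibroblast. The summed smooth muscle markers made up 61523 to 70593 CPM in the smooth muscle gate, and all 8 markers were at 10 CPM or more there. The smooth muscle list includes Myh11 and the fibroblast list Pdgfra, so the gates themselves fix part of these marker sums. The fibroblast markers stood at 41175 CPM at baseline and at 20996 and 18465 CPM in the AngII fibroblasts, in which the smooth muscle markers stood at 4418 and 4322 CPM against 1496 CPM at baseline. Macrophage markers summed to 300.1 and 213 CPM in the smooth muscle and fibroblast gates of CNC AngII, against 1.35 to 19.8 CPM in the other 4 groups of cells. From 23 to 29 cell barcodes were shared by any 2 libraries. With 1 library per group, no test between conditions was possible. Intervals below are 95% intervals for counting error only, and mice, dissections and library preparations cannot be told apart from treatment or origin.

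The baseline library was also deposited with a different gene list, in which the cyclase subunits carry the older symbols Gucy1a3 and Gucy1b3. A difference in annotation between that file and the AngII files cannot be told apart from treatment. In GENCODE M21, exons of Npr1, Npr2, Npr3, Pde5a and Pde3a overlap an antisense gene, and exons of Gucy1a1 hold the microRNA gene Mir7010. Whether the counting used strand is not given in the sources used here, so these values may include reads of the antisense partners. Where those partners are listed in a file, they had 0 to 7 UMIs in a whole library for Npr1, Npr2 and Pde5a. Pde3a's partner Gm28523 had 98, 119 and 87 UMIs, and Npr3's partner Gm5144 had 154 and 79 UMIs in the AngII libraries.

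Upstream sequence is shown for 4 members that the results turn on: the cyclase pair, neighbours in the genome whose levels went together over groups of cells, and the receptors Npr1 and Npr3, which moved in opposite directions in fibroblasts. Gucy1b1 and Gucy1a1 lie side by side on the minus strand of chromosome 3, at 82032004 to 82074711 and 82092427 to 82145946, with 17715 bases between them (RefSeq, GRCm38.p6, the assembly of the build mm10). Npr1 lies on the same chromosome at 90450591 to 90465928 and Npr3 on chromosome 15 at 11839896 to 11907837. Each line gives the 250 bases before a listed RefSeq start in the direction of transcription. A listed start can lie inside the longest model of its gene, as for Gucy1a1, Npr1 and Npr3. Sequence is in lower case, with capitals for the GC box GGGCGG or its complement.
Gucy1b1 (chr3:82074712-82074961, minus strand): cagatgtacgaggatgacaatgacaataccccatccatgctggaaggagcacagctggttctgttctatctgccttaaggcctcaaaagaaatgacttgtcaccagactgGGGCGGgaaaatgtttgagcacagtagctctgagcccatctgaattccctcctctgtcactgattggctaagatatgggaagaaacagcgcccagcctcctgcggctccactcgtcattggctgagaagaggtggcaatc
Gucy1a1 (chr3:82145651-82145900, minus strand): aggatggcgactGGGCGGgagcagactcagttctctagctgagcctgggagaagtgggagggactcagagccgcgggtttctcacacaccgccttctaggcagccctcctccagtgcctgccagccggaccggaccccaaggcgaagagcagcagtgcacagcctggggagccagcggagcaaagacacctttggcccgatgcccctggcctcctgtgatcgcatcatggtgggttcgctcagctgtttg
Npr1 (chr3:90465867-90466116, minus strand): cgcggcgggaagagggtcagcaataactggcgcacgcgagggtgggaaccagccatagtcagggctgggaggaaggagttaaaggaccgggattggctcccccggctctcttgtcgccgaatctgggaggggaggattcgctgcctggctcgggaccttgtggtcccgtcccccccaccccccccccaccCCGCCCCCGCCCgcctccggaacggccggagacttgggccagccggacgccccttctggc
Npr3 (chr15:11907372-11907621, minus strand): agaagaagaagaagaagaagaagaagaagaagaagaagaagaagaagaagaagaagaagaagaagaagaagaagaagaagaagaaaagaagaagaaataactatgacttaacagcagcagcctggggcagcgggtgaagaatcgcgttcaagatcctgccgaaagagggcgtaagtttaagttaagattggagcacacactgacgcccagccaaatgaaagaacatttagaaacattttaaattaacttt
Npr1 held 2 adjoining GC boxes, the cyclase subunits held 1 each, and Npr3, whose window opens with a long repeat of the letters aag, held none.

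Across the 9 starts listed for 7 members, searched on both strands, 6 windows held a GC box, against 32.7% of all 32851 RefSeq promoter windows of the same length. The windows without it belonged to Npr2, Npr3 and the second start of Gucy1a1. No window held a CArG box, the element that serum response factor binds (1.47% of all windows), the AP-1 letters TGANTCA (6.75%), or the MCAT letters CATTCC (12.6%). No motif searched contains another, and a missing match says only that they are not in these 250 bases.

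Npr1 encodes the receptor for atrial and B-type natriuretic peptides. In smooth muscle it stood at 37.9 CPM in SHF baseline (95% interval 35.7 to 40.2), 42.3 CPM in SHF AngII (40.8 to 43.9) and 64.0 CPM in CNC AngII (62.4 to 65.6). In fibroblasts it stood at 26.7 CPM in SHF baseline (25.1 to 28.4), 7.99 CPM in SHF AngII (7.19 to 8.87) and 10.1 CPM in CNC AngII (8.37 to 12.1). The receptor was thus highest in CNC smooth muscle, changed little with AngII in SHF smooth muscle, and was lower by 3.08-fold in AngII fibroblasts than in baseline fibroblasts of SHF.

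Npr2 encodes the receptor for C-type natriuretic peptide, the locally made member of the peptide family. Its smooth muscle levels were 19.7, 15.4 and 15.8 CPM in baseline SHF, SHF AngII and CNC AngII cells. Its fibroblast levels were 32.0, 14.0 and 14.1 CPM in the same order. At baseline it was the only member above the minimum level that was at least 1.5-fold higher in fibroblasts than in smooth muscle. The intervals of the 2 classes overlapped in both AngII libraries, where its fibroblast level was 2.20-fold below baseline in SHF.

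Npr3 encodes the clearance receptor, which takes up natriuretic peptides without making cyclic GMP. In fibroblasts it stood at 11.6 CPM in SHF baseline (10.5 to 12.7), 28.2 CPM in SHF AngII (26.7 to 29.8) and 40.5 CPM in CNC AngII (36.9 to 44.4). In smooth muscle it stayed under 10 CPM, at 8.70, 9.67 and 6.40 CPM. The clearance receptor was the only one of the 8 that was higher by 1.5-fold or more in AngII than in baseline SHF fibroblasts. The cyclase-bearing receptors Npr1 and Npr2 were lower in the same cells.

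The soluble cyclase is a dimer of an alpha and a beta subunit, and Gucy1a1 and Gucy1b1 encode the pair that vascular smooth muscle uses. Gucy1a1 stood at 257 CPM in SHF baseline smooth muscle (251 to 263), 123 CPM in SHF AngII (121 to 126) and 100.3 CPM in CNC AngII (98.3 to 102). Gucy1b1 stood at 221 CPM (215 to 226), 129 CPM (127 to 132) and 104 CPM (102 to 106) in the same order. Both subunits were highest at baseline and lowest in CNC AngII, and no interval overlapped its neighbour. Their fibroblast levels were far lower: Gucy1a1 stood at 35.7, 15.4 and 31.4 CPM and Gucy1b1 at 27.9, 16.1 and 17.2 CPM. Gucy1a1 in CNC AngII fibroblasts was near its baseline SHF level, whereas Gucy1b1 there was not.

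Prkg1 encodes the cyclic GMP-dependent protein kinase of smooth muscle. Its smooth muscle levels were 29.2 CPM (27.3 to 31.3), 30.3 CPM (29.0 to 31.6) and 31.8 CPM (30.7 to 32.9) in baseline SHF, SHF AngII and CNC AngII cells. The neighbouring intervals overlapped, so the kinase RNA differed between neighbouring libraries by no more than counting error. In fibroblasts it stood at 6.46, 7.44 and 7.33 CPM, again with overlapping intervals.

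Pde5a encodes the phosphodiesterase that is specific for cyclic GMP, and Pde3a one that breaks down cyclic AMP and is held back by cyclic GMP. Pde5a stood at 75.4 CPM (72.3 to 78.6), 49.2 CPM (47.6 to 50.9) and 46.0 CPM (44.6 to 47.3) in smooth muscle of the 3 libraries. In fibroblasts its levels were 29.8, 27.9 and 30.5 CPM, with overlapping intervals. Pde3a stood at 196 CPM (191 to 201), 120.5 CPM (118 to 123) and 113.5 CPM (111 to 116) in smooth muscle. In fibroblasts it stood at 58.2, 30.1 and 33.0 CPM. Both enzymes were lower in AngII smooth muscle than at baseline, and in fibroblasts this held for Pde3a but not for Pde5a.

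**Figure D1:**
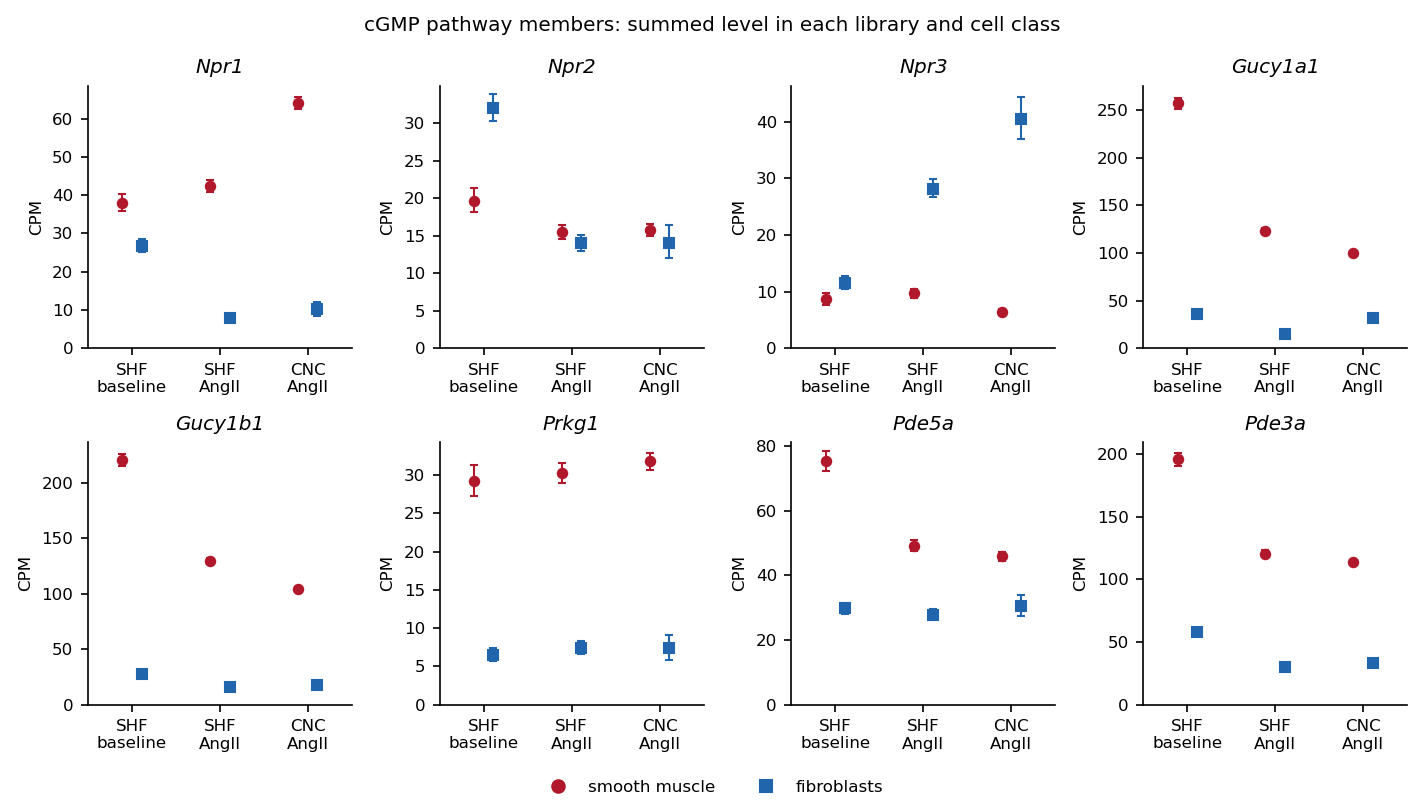
Level of each member in CPM (its UMIs scaled to the total UMIs of the cells of a class) in the 3 libraries, for smooth muscle (circles) and fibroblasts (squares). Bars are exact Poisson 95% intervals of the summed count. Gucy1a1, Gucy1b1, Pde5a and Pde3a were highest in SHF baseline smooth muscle, Npr1 was highest in CNC AngII smooth muscle, and Npr3 was highest in CNC AngII fibroblasts.

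AngII was compared with baseline within SHF smooth muscle by the log2 ratio of CPM plus 1. Of the 8 members, 7 had a mean of 10 CPM or more over the groups compared (Npr3 did not). Of these, 4 were at least 1.5-fold lower and 0 at least 1.5-fold higher. In the same comparison 15.6% of all 6998 genes tested were lower by that much and 8.76% were higher, 24.3% in all. Gucy1a1 fell by 1.05 on the log2 scale, Gucy1b1 by 0.76, Pde3a by 0.69 and Pde5a by 0.61. The remaining 4 had log2 ratios of 0.15 (Npr1), -0.33 (Npr2), 0.14 (Npr3) and 0.05 (Prkg1). The median log2 ratio was -0.61 over the 7 members and -0.10 over all genes. RNAs of the soluble cyclase subunits, Pde3a and Pde5a were thus lower in AngII smooth muscle, and those of the kinase and of Npr1 were not.

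These smooth muscle differences depended on how the libraries were scaled. TMM scaling, which matches the bulk of genes between groups, moved the median of all genes up by 0.17 and turned 613 higher and 1091 lower genes into 985 and 613. On that scale Gucy1a1 (-0.88) and Gucy1b1 (-0.59) remained at least 1.5-fold lower, and Pde3a (-0.52) and Pde5a (-0.44) did not. Baseline smooth muscle cells also had a higher median share of mitochondrial UMIs, 7.36% against 5.43% in SHF AngII. A filter at 5% mitochondrial UMIs and 1000 genes left 120 baseline and 1593 AngII cells, between which Gucy1a1 fell by 1.90 on the log2 scale, Npr2 by 0.99 and Prkg1 by 0.65.

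In SHF fibroblasts, 7 members had a mean of 10 CPM or more and Prkg1 did not. Of these 7, 5 were at least 1.5-fold lower and 1 at least 1.5-fold higher with AngII. Of all 7691 genes tested, 27.6% were lower and 10.5% higher by that much, 38.1% in all. Npr1 fell by 1.62 on the log2 scale, Gucy1a1 by 1.16, Npr2 by 1.14, Pde3a by 0.93 and Gucy1b1 by 0.76, whereas Npr3 rose by 1.22. Pde5a (-0.09, and 0.17 with TMM scaling) and Prkg1 (0.18) moved little. The median was -0.93 over the 7 members and -0.21 over all genes. TMM scaling moved the median of all genes by 0.26 and turned 810 higher and 2123 lower genes into 1570 and 1179. Npr1 (-1.37), Gucy1a1 (-0.90), Npr2 (-0.88), Pde3a (-0.66) and Npr3 (1.47) passed 1.5-fold on that scale, and Gucy1b1 (-0.50) did not. The lower fibroblast markers and higher smooth muscle markers of AngII fibroblasts, given above, moved with these values, and their part was not tested.

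Set side by side, the classes differed for the receptors and for Pde5a more than for the cyclase. The log2 ratio of Npr1 with AngII was 0.15 in smooth muscle and -1.62 in fibroblasts, that of Npr2 -0.33 and -1.14, and that of Pde5a -0.61 and -0.09. For Gucy1a1 the ratios were -1.05 and -1.16, for Gucy1b1 -0.76 in both classes, and for Pde3a -0.69 and -0.93. Both classes come from the same pair of files, so for all members library making and gene annotation cannot be told apart from treatment. No difference between classes was tested, since each rests on 1 library per condition.

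**Figure D2:**
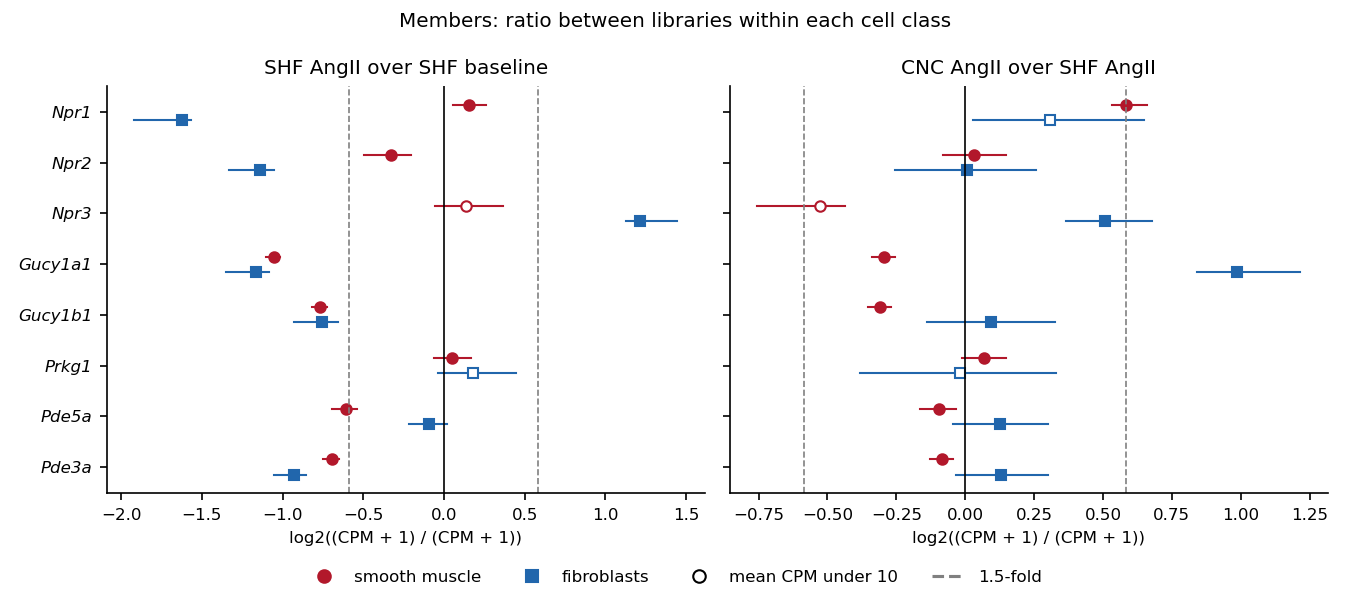
Log2 ratio of CPM plus 1 for each member, SHF AngII over SHF baseline (left) and CNC AngII over SHF AngII (right), in smooth muscle (circles) and fibroblasts (squares). Lines are 95% counting intervals of the ratio without the added 1, dashed lines mark 1.5-fold, and open symbols have a mean under 10 CPM. Npr1 and Npr3 part in opposite directions in fibroblasts on the left, and Gucy1a1 in fibroblasts is the only filled point beyond 1.5-fold on the right.

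Origin, as set by the sort, was compared between CNC and SHF cells after AngII. The sorted libraries also differed in other cells. Macrophage-gated cells (1 or more UMIs of Ptprc and of Csf1r or Cd68, 0 of Pdgfra, 2 or fewer of Myh11) were 14.1% of CNC AngII and 0.15% of SHF AngII. In smooth muscle, 0 of the 7 members with a mean of 10 CPM or more were 1.5-fold apart, against 1.95% of all 6822 genes in either direction (0.938% higher and 1.01% lower). Npr1 came closest, with a log2 ratio of 0.58 (interval 0.53 to 0.66), just under the threshold, and it passed the threshold under 6 of the 14 alternative settings. Gucy1a1 and Gucy1b1 were lower in CNC by 1.23-fold and 1.24-fold, and both intervals lay below equality. Npr2 (0.03), Prkg1 (0.07), Pde5a (-0.10) and Pde3a (-0.09) differed little. Npr3, below the minimum, had a ratio of -0.53.

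The higher Npr1 of CNC smooth muscle held in every subset examined. Smooth muscle cells with an Igfbp2 UMI, a transcript much more common under AngII, had 64.2 CPM in CNC and 45.3 CPM in SHF, and cells without it had 62.4 and 34.0 CPM. Cells with a UMI of Tnnt2, the striated muscle troponin T, had 63.7 and 37.8 CPM, and cells without it had 64.0 and 48.3 CPM. Cells with a UMI of Spp1, the matrix protein osteopontin, had 59.9 and 49.7 CPM, and cells without it had 65.5 and 41.1 CPM. Npr1 was thus higher in CNC in 6 of 6 subsets, which overlap each other and come from the same library pair. Macrophage markers were also higher in CNC smooth muscle, as given above. Macrophage-gated cells of CNC AngII themselves had 14.7 CPM of Npr1. The part of macrophage RNA in the Npr1 difference was not tested.

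In fibroblasts, 1 of the 6 members at the minimum was at least 1.5-fold higher in CNC than in SHF after AngII and 0 were lower, against 1.22% of all 7274 genes higher and 1.06% lower, 2.28% in all. This was Gucy1a1, with a log2 ratio of 0.98 (interval 0.84 to 1.22). Npr3 followed with 0.51 (0.37 to 0.68), and the intervals of Npr2, Gucy1b1 (0.09), Pde5a (0.12) and Pde3a (0.13) included 0. Npr1 (0.31) and Prkg1 (-0.02) had a mean under 10 CPM. The Gucy1a1 value rested on few cells. In CNC AngII, 40 fibroblasts with 3 or more Gucy1a1 UMIs, 4.75% of the gate, held 65.0% of its 360 UMIs. The ratio of its partner Gucy1b1, as given, was near 0.

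The distribution of Gucy1a1 over fibroblasts was uneven in every library. Fibroblasts with 3 or more UMIs were 3.83%, 2.92% and 4.75% of the gate in SHF baseline, SHF AngII and CNC AngII, and they held 53.7%, 52.4% and 65.0% of the gene's UMIs. For Npr2, cells with 3 or more UMIs were 0.74%, 0.30% and 0.24% of the gate and held 7.91%, 3.97% and 3.73%. For Npr3 such cells were 0.66% of baseline fibroblasts and 4.89% and 6.89% of AngII fibroblasts, and they held 21.7%, 43.4% and 52.8% of its UMIs. Over the same libraries its share of cells with any UMI was 8.05%, 26.1% and 27.2%. A fixed limit of 3 UMIs is passed more often at a higher level and depth, so these Npr3 shares do not show a change in evenness.

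The shares of cells with a UMI were compared at equal depth. Each cell was thinned to 5000 UMIs, which left out 45, 59 and 82 smooth muscle cells and 717, 136 and 73 fibroblasts of the 3 libraries. Gucy1a1 was then seen in 65.7%, 44.8% and 39.0% of smooth muscle cells of SHF baseline, SHF AngII and CNC AngII (88.9%, 74.3% and 70.0% before thinning). Gucy1b1 was seen in 63.6%, 49.5% and 41.2% (88.9%, 80.3% and 74.0%). Both subunits were detected in fewer AngII cells at the same sampling depth.

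Pde3a was detected in 58.9%, 43.2% and 42.7% of thinned smooth muscle cells (86.5%, 74.5% and 74.5% unthinned) and Pde5a in 30.5%, 21.3% and 21.5% (56.5%, 47.1% and 46.5%). Npr1 was detected in 16.2%, 17.7% and 27.5% (32.1%, 39.4% and 56.4%) and Prkg1 in 14.1%, 14.9% and 15.1% (28.7%, 33.8% and 35.7%). The phosphodiesterases again separated baseline from AngII, Npr1 separated CNC from SHF, and Prkg1 did neither. In thinned fibroblasts, Npr3 was detected in 4.69%, 10.9% and 15.7% (8.05%, 26.1% and 27.2%), Npr1 in 11.8%, 4.23% and 4.68% (19.6%, 11.2% and 12.1%) and Npr2 in 14.9%, 7.03% and 6.89% (25.4%, 20.1% and 17.0%). Clearance receptor and signalling receptors moved in opposite directions at equal depth as well.

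Macrophage-gated cells, which are not known for most of these genes, were taken as a measure of the RNA that droplets hold without expression. That they do not express the members was assumed and not tested. The CNC AngII library held 1435 of them, with a median of 11538 UMIs, and 1399 remained at 5000 UMIs. Npr1 was detected in 6.58% of these thinned cells (interval 5.33 to 8.004), above its 4.68% in fibroblasts of the same library, whose interval was 3.30 to 6.42. The remaining members were detected in 0.86% of them or fewer. By level, Npr1 in macrophage-gated cells reached 23.0% of its smooth muscle level, whereas the other 7 members reached 0.91% to 4.71% and the abundant smooth muscle transcript Acta2 reached 0.73%. Npr1 counts in these cells were therefore not in the proportion that the other smooth muscle transcripts had. For Npr1 these cells are therefore not used as a background. The SHF libraries held 7 and 14 macrophage-gated cells, too few for such a comparison.

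**Figure D3:**
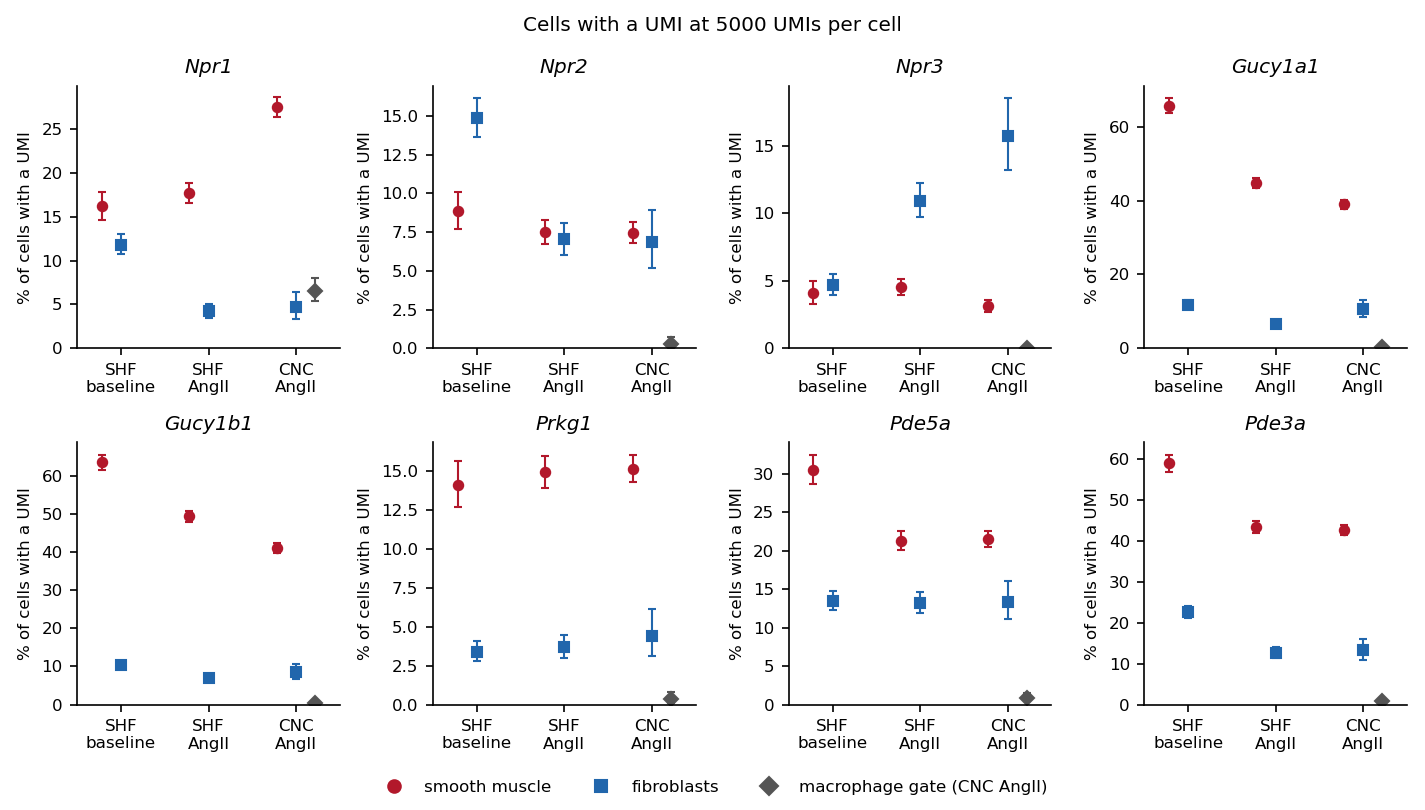
Share of cells with at least 1 UMI of each member after thinning every cell to 5000 UMIs, for smooth muscle (circles), fibroblasts (squares) and the macrophage-gated cells of CNC AngII (diamonds). Bars are exact Clopper-Pearson 95% intervals. Gucy1a1 goes from 65.7% to 39.0% of smooth muscle cells, and Npr1 is the only member above 1% in macrophage-gated cells.

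Smooth muscle and fibroblasts were compared within each library. In SHF baseline, 5 of the 8 members were at least 1.5-fold higher in smooth muscle and 1 (Npr2) was at least 1.5-fold lower, against 12.0% and 24.6% of all 7731 genes (36.6% in either direction). In SHF AngII, 6 were higher and 1 (Npr3) was lower, against 15.3% and 22.6% of 7251 genes (37.9% in either direction). In CNC AngII, 5 were higher and 1 (Npr3) was lower, against 14.9% and 21.8% of 7301 genes (36.7% in either direction). Their median log2 ratios were 1.52, 1.93 and 1.70, and those of all genes were -0.19, -0.11 and -0.11. TMM scaling moved the medians of all genes by 0.24, 0.20 and 0.23 and turned 927 higher and 1899 lower genes into 1378 and 1316, 1107 and 1640 into 1572 and 1192, and 1090 and 1589 into 1607 and 1115. With it Npr2 at baseline was within 1.5-fold (-0.43), and Npr1 at baseline (0.74) and Pde5a in CNC AngII (0.80) passed it, which gave 6 higher members in each library. Without TMM scaling, Gucy1a1, Gucy1b1, Prkg1 and Pde3a were at least 1.5-fold higher in smooth muscle in all 3 libraries. Npr1 and Pde5a were higher in all 3 with a smaller ratio in 1 of them, Npr1 in SHF baseline and Pde5a in CNC AngII.

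In the SHF libraries that difference was larger for the cyclase subunits than for the other members. In CNC AngII Npr1 and Gucy1b1 had the highest ratios, with overlapping intervals. Their order there turned round with a pseudocount of 10 CPM, at log2 ratios of 1.88 for Npr1 and 2.07 for Gucy1b1. Gucy1a1 was 7.03-fold higher in smooth muscle in SHF baseline, 7.58-fold in SHF AngII and 3.12-fold in CNC AngII, and Gucy1b1 was 7.68-fold, 7.64-fold and 5.79-fold higher. Prkg1 was 4.05-fold, 3.71-fold and 3.93-fold higher, and Pde3a 3.32-fold, 3.91-fold and 3.37-fold. Pde5a was 2.48-fold and 1.74-fold higher in the SHF libraries and 1.49-fold higher in CNC AngII, just under the threshold. Npr1 was 1.40-fold higher at baseline (a log2 ratio of 0.49, and of -0.05 among the 120 cells of the stricter filter) and 4.82-fold and 5.84-fold higher under AngII. Npr3 was 1.29-fold, 2.74-fold and 5.61-fold higher in fibroblasts. In the AngII libraries Npr1, a receptor that makes cyclic GMP, was higher in smooth muscle, and Npr3, the clearance receptor, was higher in fibroblasts. Npr2, which also makes cyclic GMP, was within 1.5-fold between the classes there, with log2 ratios of 0.13 in SHF and 0.16 in CNC.

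Within each class, cells were split by a UMI of a single gene. Such a split also sorts cells by depth, so CPM were compared. In smooth muscle, cells with an Igfbp2 UMI had less Gucy1a1 than cells without it in every library, at 210 against 275 CPM in SHF baseline, 107 against 170 CPM in SHF AngII, and 95.5 against 126 CPM in CNC AngII. They had more Npr3, at 14.5 against 6.51, 10.8 against 6.50, and 6.84 against 4.04 CPM. Cells with Igfbp2 UMIs were 23.7%, 67.5% and 81.0% of smooth muscle in the 3 libraries, with median depths of 14501.5 against 11965, 14707.5 against 10419, and 14051.5 against 10674 UMIs. Smooth muscle markers summed to 63999 against 60597, 72439 against 65429, and 63290 against 60279 CPM with against without Igfbp2, and macrophage markers in CNC AngII to 252 against 561 CPM. Fibroblast markers summed to 3282 against 3273, 3796 against 3995, and 4083 against 3513 CPM. Of these, Dcn did not follow the sum, at 184 against 359, 80.5 against 434, and 17.0 against 38.5 CPM. The part of these RNAs in the Gucy1a1 difference was not tested. Gucy1a1 was lower in SHF AngII than in SHF baseline in both subsets.

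Cells with a UMI of Tnnt2 showed the reverse for the cyclase. Cells with a Tnnt2 UMI had 269 CPM of Gucy1a1 against 227 CPM without in SHF baseline, 141 against 100.5 CPM in SHF AngII, and 106 against 98.7 CPM in CNC AngII. Gucy1b1 was at 232 against 193, 143 against 112, and 117 against 101 CPM. Npr1 ran the other way in the SHF libraries, at 34.9 against 45.6 and 37.8 against 48.3 CPM, and was level in CNC at 63.7 against 64.0 CPM.

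Spp1 is a marker of smooth muscle cells that have left the contractile state. Only 10 baseline cells had a Spp1 UMI, so the AngII libraries alone are described, in which 457 SHF and 1358 CNC cells had one. In SHF AngII these cells had less Gucy1a1 (92.3 against 128 CPM), Gucy1b1 (94.5 against 135), Prkg1 (23.1 against 31.5) and Pde5a (39.3 against 50.8). In CNC AngII the same 4 genes were at 79.7 against 108, 82.6 against 113, 27.6 against 33.4, and 39.5 against 48.5 CPM. Npr1 differed in direction, at 49.7 against 41.1 CPM in SHF and 59.9 against 65.5 CPM in CNC. The summed smooth muscle markers were also lower in cells with Spp1, at 58977 against 72524 CPM in SHF and 51826 against 67127 CPM in CNC. Fibroblast markers were higher, at 4874 against 3678 and 4513 against 3793 CPM. Macrophage markers were at 1.11 against 1.39 CPM in SHF and 445 against 244 CPM in CNC. The part of these RNAs in the differences was not tested. Median depth was 19749 against 12700.5 UMIs in SHF and 18596.5 against 12492 in CNC.

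Fibroblasts were split by Pi16, a transcript of adventitial progenitor-like fibroblasts, and by Cthrc1, a transcript of matrix-producing fibroblasts. Fibroblasts without a Pi16 UMI had 104 CPM of Gucy1a1 against 25.1 CPM with it in SHF baseline, 74.8 against 10.2 CPM in SHF AngII, and 56.5 against 27.8 CPM in CNC AngII. Gucy1b1 was at 63.3 against 22.4, 46.3 against 13.5, and 28.6 against 15.6 CPM. Prkg1 was at 17.0 against 4.84, 23.4 against 6.05, and 14.6 against 6.29 CPM. The soluble cyclase and the kinase were thus higher in the minority of fibroblasts without Pi16, which were 550, 265 and 127 cells. For the receptors Npr1 and Npr2 the interval of the ratio included equality in all 3 libraries. Median depth with against without Pi16 was 9613 against 9109.5, 15880 against 10981, and 12867 against 9722 UMIs.

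Fibroblasts without Pi16 also had more smooth muscle marker RNA, at 2534 against 1335 CPM in SHF baseline, 8687 against 4048 CPM in SHF AngII, and 7806 against 3823 CPM in CNC AngII. Their pericyte markers summed to 379 against 280, 260 against 194, and 206 against 201 CPM, nearly level in CNC AngII. In CNC AngII their macrophage markers were at 820 against 127 CPM. The part of these RNAs in the cyclase difference was not tested. The higher Gucy1a1 of CNC over SHF fibroblasts held in cells with Pi16 (27.8 against 10.2 CPM) and not in cells without it (56.5 against 74.8 CPM).

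The split by Cthrc1 set Npr3 apart from the cyclase. Fibroblasts with a Cthrc1 UMI had more Npr3 than those without, at 17.7 against 10.4 CPM in SHF baseline, 30.5 against 21.6 CPM in SHF AngII, and 46.5 against 28.0 CPM in CNC AngII. They had less Gucy1a1, at 15.7 against 39.4, 9.91 against 31.3, and 18.5 against 58.4 CPM, and less Gucy1b1, at 17.7 against 29.8, 11.9 against 28.3, and 12.7 against 26.6 CPM. Cells with Cthrc1 were 12.1%, 62.3% and 55.8% of fibroblasts in the 3 libraries and were deeper, with medians of 12112.5 against 9162, 19231 against 10656.5, and 15157.5 against 8765.5 UMIs. Their summed smooth muscle markers were at 1070 against 1576, 4072 against 5423, and 4404 against 4149 CPM. Their pericyte markers were at 213 against 308, 182 against 249, and 183 against 238 CPM, and their macrophage markers in CNC AngII at 169 against 307 CPM. The part of these RNAs in the cyclase difference was not tested. Between the SHF libraries Npr3 was higher after AngII in cells with Cthrc1 and in cells without it.

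**Figure D4:**
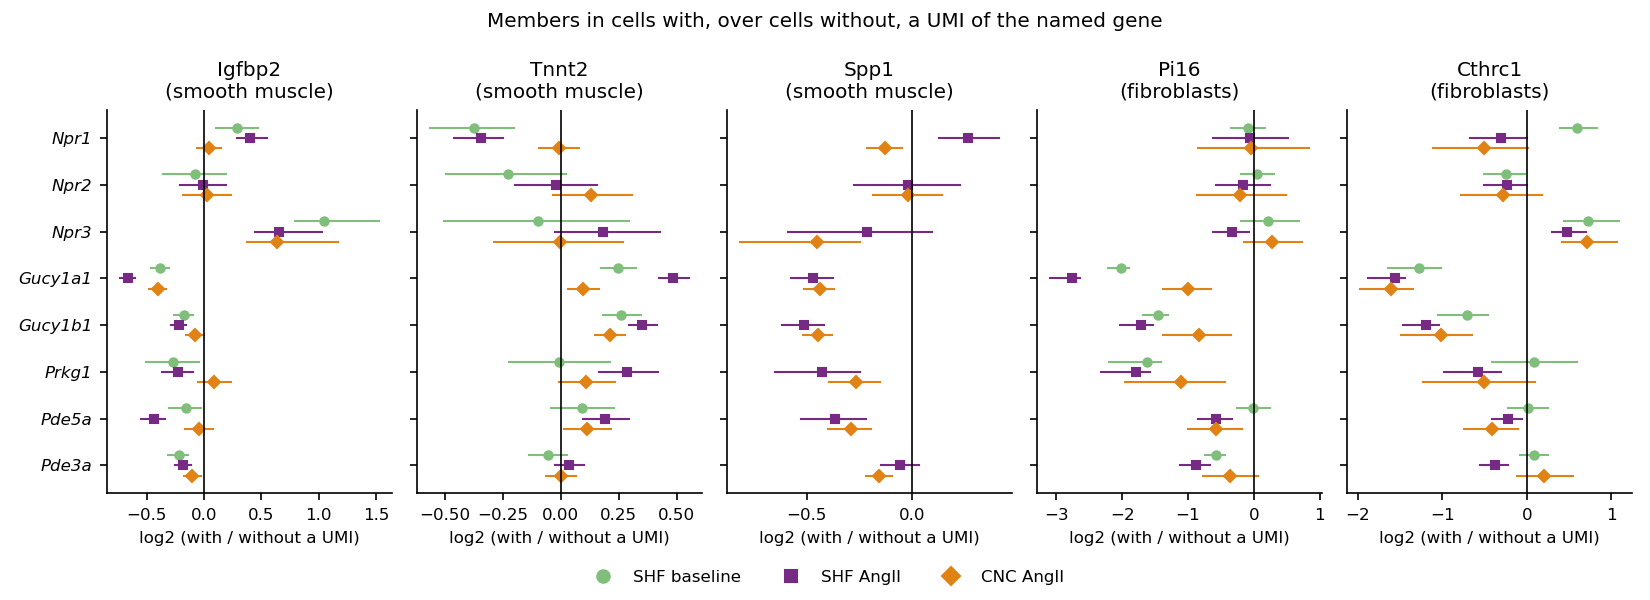
Log2 ratio of CPM plus 1 of each member in cells with a UMI of the gene named above each panel over cells without it, for smooth muscle (Igfbp2, Tnnt2, Spp1) and fibroblasts (Pi16, Cthrc1). Colours and symbols give the library and lines the 95% counting intervals of the ratio without the added 1. Baseline is left out for Spp1, with 10 cells. Gucy1a1, Gucy1b1 and Prkg1 lie left of 0 for Pi16 in all 3 libraries, and Npr3 lies right of 0 for Cthrc1.

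Detection of the cyclase subunits also went together within cells, though not for this pair alone. In fibroblasts thinned to 5000 UMIs, Gucy1b1 was detected in 24.7% of cells with Gucy1a1 and 8.37% of cells without it in SHF baseline, in 23.0% and 5.94% in SHF AngII, and in 30.5% and 5.82% in CNC AngII. In smooth muscle the shares were 66.5% and 58.2%, 54.7% and 45.3%, and 45.0% and 38.7%. Across 13 groups of cells (the Igfbp2 and Pi16 subsets of each library and the macrophage-gated cells of CNC AngII) the log2 levels of the subunits had a Pearson r of 0.98. The same groups gave r = 0.96 for Gucy1a1 with Pde3a, 0.95 with Prkg1 and 0.91 with Pde5a, 0.58 with Npr1 and 0.24 with Npr3. These are descriptions over groups that share libraries and depth, and most of their spread is that between cell classes.

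Among the 7693 genes with a mean of 10 CPM or more over these groups, the 3 most alike were taken for each member. For Gucy1a1 they were Clu (r = 0.98), Nav2 (0.98) and Gucy1b1 (0.98), so the partner subunit was among the 3. Gucy1b1 was most like Arhgef17 (0.99), Ccdc141 (0.98) and Nav2 (0.98), Prkg1 most like Nudt4 (0.98), Pawr (0.98) and Sncg (0.98), Pde5a most like Sgcd (0.99), Gjc1 (0.99) and Plcd1 (0.99), and Pde3a most like Map1b (0.99), Mical3 (0.99) and Rftn2 (0.99). Npr3 was most like Ltbp2 (0.96), Myl12a (0.95) and Arl1 (0.94), Npr1 most like Ppp2r5e (0.96), Kif13a (0.96) and Ago2 (0.96), and Npr2 most like Osbpl5 (0.997), Evc (0.993) and Pard3 (0.991). Npr2 stood at 0.74 CPM in the macrophage-gated cells and at 14.0 to 32.0 CPM in the smooth muscle and fibroblast classes. How far the macrophage-gated group alone sets its r was not tested.

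The other genes of the pathway came from a list of 44 covering ligands, nitric oxide supply, cyclase partners, kinase targets, other phosphodiesterases and cyclic GMP export. The ligand genes were close to absent from the gated cells. Nppa had 0 to 7 UMIs and Nppb 0 to 2 in any class and library, and Nppc had 8 to 29. Nos3, the endothelial nitric oxide synthase, was at 1.06 CPM or less in both classes, and Nos1 and Nos2 had 0 to 2 UMIs. Receptor and effector RNAs were thus present in the gated cells with little RNA for the hormones or the synthases upstream of them.

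With AngII, SHF smooth muscle had 20 listed genes at the minimum, of which 1 was at least 1.5-fold higher and 6 lower, against 8.76% and 15.6% of all genes. Their median log2 ratio was -0.18. With TMM scaling the counts were again 1 and 6, and the median was -0.02. The higher gene was Cyb5r3, the reductase that keeps the haem of the soluble cyclase responsive to nitric oxide, which went from 414 to 827 CPM. The lower genes were Rgs2, a brake on G protein signalling that the kinase activates (24.1 to 8.71 CPM), Pln, the regulator of the calcium pump (29.1 to 11.3), the calcium release channel Itpr1 (101 to 51.8), the cyclic AMP phosphodiesterases Pde4b (138 to 57.3) and Pde4a (45.7 to 25.1), and the cyclic nucleotide exporter Abcc5 (23.8 to 12.8). Mrvi1, the kinase target also called Irag1, had a log2 ratio of -0.34. 

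In SHF fibroblasts, 19 listed genes were at the minimum, 5 higher and 8 lower, with a median log2 ratio of 0.22, against 10.5% and 27.6% of all genes. With TMM scaling, an alternative added for these genes after the data were seen, 8 were higher and 6 lower: Furin (0.59), Vasp (0.61) and Pde1a (0.82) passed 1.5-fold, Ide (-0.47) and Pde3b (-0.44) did not, and the median was 0.50. Ddah1, which breaks down a natural inhibitor of nitric oxide synthase, went from 3.09 CPM in SHF baseline to 112 CPM in SHF AngII and stood at 106 CPM in CNC AngII. Smooth muscle had 0.54, 2.07 and 1.67 CPM of it. Its paralogue Ddah2 went the other way in fibroblasts, from 302 to 159 CPM. Cyb5r3 went from 142 to 353 CPM, and the kinase targets Hspb6 (6.54 to 18.3), Ppp1r12a (29.0 to 47.8) and Csrp1 (74.8 to 117) were also higher. Mme, the peptidase neprilysin that degrades natriuretic peptides, went from 26.1 to 5.12 CPM, and Ide, another peptidase that cleaves them, from 51.7 to 30.5 CPM. Itpr1 (53.0 to 20.7), Pde4b (92.4 to 24.3), Pde4a (18.4 to 7.44), Pde3b (16.3 to 9.69) and Abcc5 (27.3 to 14.5) were lower as well, so Itpr1, Pde4a, Pde4b and Abcc5 were lower in both classes.

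**Figure D5:**
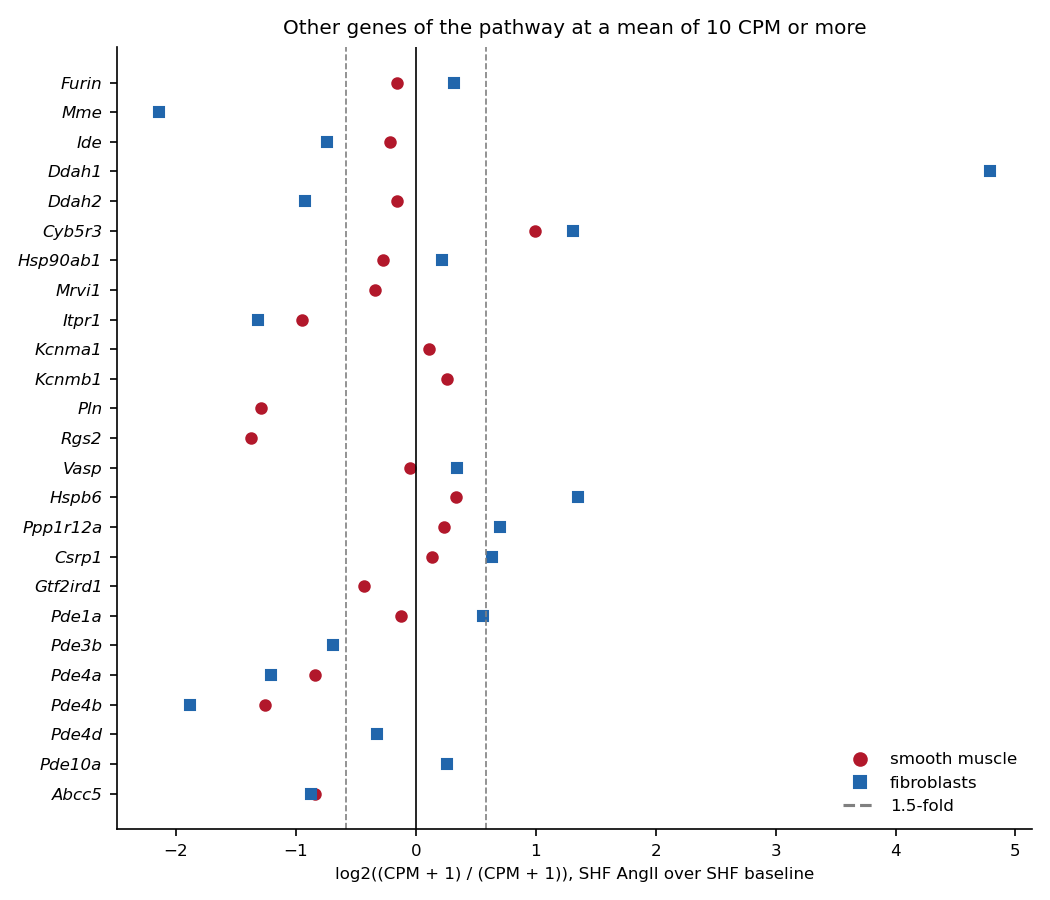
Log2 ratio of CPM plus 1, SHF AngII over SHF baseline, for the other pathway genes with a mean of 10 CPM or more in smooth muscle (circles) or fibroblasts (squares). A class without a symbol was under the minimum for that gene, and dashed lines mark 1.5-fold. Ddah1 in fibroblasts and Cyb5r3 in both classes lie on the right, and Pde4b lies on the left in both.

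Between origins after AngII, 0 of the 18 listed genes at the minimum in smooth muscle and 0 of the 15 in fibroblasts were 1.5-fold apart, against 1.95% and 2.28% of all genes. At such shares a list of this length is not set apart by a count of 0. Their median log2 ratios were 0.02 and 0.03. Between classes, 12 listed genes were higher in smooth muscle and 3 lower of 22 in SHF baseline, and 11 higher and 3 lower of 18 in each AngII library. Over all genes 12.0%, 15.3% and 14.9% were higher and 24.6%, 22.6% and 21.8% lower. With TMM scaling the counts were 16 and 2, 11 and 3, and 12 and 3. The kinase targets made up most of these: all 8 that were at the minimum in the AngII libraries were higher in smooth muscle, among them Kcnmb1, the beta subunit of the calcium-activated potassium channel, at 164 against 0.34 CPM in SHF baseline, and Mrvi1, at 149 against 5.57 CPM. Ddah2 and the calmodulin-dependent phosphodiesterase Pde1a, at 84.9 against 302 CPM and 14.5 against 23.7 CPM in SHF baseline, were at least 1.5-fold lower in smooth muscle than in fibroblasts in all 3 libraries, although Pde1a was within 1.5-fold (-0.43) at baseline with TMM scaling.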

How the data were processed

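The authors deposited raw UMI counts per gene and cell barcode for each library; the submitters' processing notes name fastp, STAR 2.5, HTSeq 0.6.1 and mm10, with no role stated. The annotation is not given in the sources used here. Older symbols were matched through RefSeq synonyms (515 genes), and 13 duplicated names were left out. Cells were kept with 500 or more genes, 10% or fewer mitochondrial UMIs and no Scrublet doublet call (scanpy 1.11.5; 192 to 279 calls per library, 1.96% to 2.61%). From deposited counts, UMIs were summed over the gated cells of a library and divided by their total. Genes with a mean of 10 CPM or more were called apart at 1.5-fold, with a pseudocount of 1 CPM. Intervals were exact Poisson, Clopper-Pearson or conditional binomial. The procedure was tested on simulated Poisson sums, which had no spread between cells or libraries and no difference in annotation. Summed depth per class ran from 11453314 to 95893101 UMIs. edgeR 4.0.16 gave TMM factors for 1 of 14 alternative settings. The 8 members and all lists were chosen with earlier results of these data known. All members are named; other pathway genes are named where called in a comparison, or as direct partners or ligands. The count of cells with 3 or more UMIs and TMM scaling of the other pathway genes were added after seeing the data.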

Additional observations from a re-analysis of the deposited data

How the results depend on the processing

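No paired analysis was possible because each group has 1 library, and for the same reason no library could be left out. Of 616 member log2 ratios (56 ratios under 11 settings), 456 moved by less than their counting interval, 160 moved further, and 0 of the ratios past 1.5-fold changed sign. For SHF AngII over baseline, smooth muscle had 2 members apart in place of 4 under TMM scaling and when thinned to 2000 UMIs per cell, 1 at 2-fold, and 6 under the stricter cell filter; fibroblasts had 0 in place of 6 at a mean of 50 CPM or more. For CNC over SHF AngII, smooth muscle had 1 (Npr1) in place of 0 under the looser cell filter, the stricter gate, totals without mitochondrial and ribosomal genes, the mean of per-cell shares, and thinning to 5000 and to 2000 UMIs. Fibroblasts had 2 in place of 1 (with Npr3) under the stricter gate and thinned to 5000 UMIs, and 0 at 50 CPM or at 2-fold. For smooth muscle over fibroblasts, 3 remained in SHF AngII and 3 in CNC AngII at 50 CPM. The higher minimum and fold lower these counts by construction; for the other settings the cause was not tested. Fibroblast Gucy1b1 with AngII was within 1.5-fold (-0.39) when thinned to 2000 UMIs, and Gucy1a1 was at -0.66 as a mean of per-cell shares. Depth limits Npr3 in smooth muscle and Prkg1 in fibroblasts, both under 10 CPM, and the 842 CNC fibroblasts.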

Other observations

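Few endothelial cells passed an endothelial gate (a Pecam1 and a Cdh5 UMI, 0 Pdgfra and Ptprc UMIs, and 2 or fewer Myh11 UMIs), 49, 29 and 30 in SHF baseline, SHF AngII and CNC AngII. Pde3a stood at 307 CPM (95% counting interval 256 to 364) in SHF baseline, 104 CPM (70.8 to 146) in SHF AngII and 99.0 CPM (59.6 to 155) in CNC AngII. Npr1 stood at 98.3 CPM (70.9 to 133), 55.0 CPM (32.0 to 88.1) and 83.4 CPM (47.6 to 135), and its intervals overlapped between libraries. In the AngII libraries both intervals held the smooth muscle level of the same gene. The cyclase subunit Gucy1b1 had 4, 3 and 0 UMIs in these cells, and the 0 allows up to 19.2 CPM, above the fibroblast level of 17.2 CPM. Ddah1, near 0 in smooth muscle, was at 86.6, 220.03 and 162 CPM in these cells, and Nos3 at 243, 120 and 115 CPM. Endothelial cells are few and smooth muscle markers summed to 1356 to 3453 CPM in them, so these values describe the gated cells of each library and no more.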
